A study of Mus musculus with 4 samples.

Results

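The 10 genes described here are ERK feedback regulators and ETV transcription factors: Dusp4, Dusp6, Spry1, Spry2, Spry4, Spred1, Il17rd, Etv1, Etv4 and Etv5. They were taken by symbol from 21690 features that were measured by RNA sequencing in neural precursors, and all 10 were found. The cells were derived from A2lox, a mouse embryonic stem cell line with a site for inducible transgenes, as a clonal derivative in which doxycycline switches on a knockdown of Geminin. Differentiation was adherent, in the serum-free medium N2B27, and every culture was harvested on day 5. The stem cells had been kept on mouse embryonic fibroblast feeders before that. In the knockdown group, 3 libraries from independent experiments, 500 ng doxycycline was present from day 3 (the labels give no volume). The control group is 1 library of the same knockdown line grown without doxycycline. The design asks what the loss of Geminin, a nuclear protein that limits DNA replication licensing, does to the transcriptome of these cells. No doxycycline-treated culture without the construct was used here, so the drug and the knockdown cannot be told apart, and the single control gives no spread between control cultures.

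Fibroblast growth factors (FGFs) and other ligands activate receptor tyrosine kinases, which signal through RAS, RAF and MEK to the kinase ERK. Active ERK induces genes that restrain the same pathway: DUSP phosphatases remove phosphate from ERK, Sprouty and SPRED proteins act on the RAS and RAF steps, and Il17rd (also named Sef) dampens FGF receptor signalling. The PEA3 group of ETS transcription factors, encoded by Etv1, Etv4 and Etv5, is induced by the same signal and carries it to target genes. In mouse embryonic stem cells, FGF and ERK signalling moves cells out of naive pluripotency, and it also acts in early neural tissue.

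Geminin RNA (Gmnn) was measured at 24.0%, 58.4% and 24.7% of the control in knockdown libraries 1, 2 and 3. Library 2 kept the most Geminin RNA, and the authors' deposited tables marked the fall in libraries 1 and 3 only. Sequencing depth relative to the control was 1.00, 1.15 and 0.971, as read from the whole-read steps of low features. The standard error implied by the deposited test was smaller in library 1 than in the others: over features at 10 to 100 FPKM in the control its median, on the natural log scale, was 0.0816 for library 1, 0.186 for library 2 and 0.173 for library 3. The reason is not given in the sources used here, and a mark in library 1 can stand for a smaller change. All 8 neural precursor markers were detected in every library. Among them, Sox2 was at 140, 203 and 154 FPKM in the knockdown libraries and 135 FPKM in the control. Sox2 overlaps other features, so its level is uncertain. Nes was at 106, 125 and 113 FPKM in the knockdown libraries against 100.5 FPKM in the control. FPKM, the deposited level, is scaled by transcript length and by the fragments mapped in a library, so levels of different genes can be set side by side.

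Dusp4, Etv1, Etv5 and Il17rd rose, no gene of the 10 fell, and the largest folds were in knockdown libraries 2 and 3. The study's own rule was used: a gene was called when the authors' deposited tables, each of 1 knockdown library against the control, marked it in the same direction in at least 2 of the 3 tables and never in the other direction. A feature could be called when at least 2 tables held a usable test. By this rule 4 of 10 genes rose, where 1.98% of all 14477 features that could be called rose, and 0 fell, where 0.905% of all features did. Library by library, the authors' deposited tables marked 1 gene of the 10 as higher in library 1, 3 in library 2 and 6 in library 3. The shares of all features marked as higher were 0.909%, 3.23% and 3.33% in the same tables. None of the 10 was marked as lower in any table, and the shares of all features so marked were 1.52%, 2.02% and 1.28%. The 3 tables share their control library, so a control value that is off recurs in each of them.

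Every call depended on which libraries entered. Without library 3 no gene was called, without library 2 only Il17rd was, and without library 1 Dusp4, Etv1 and Etv5 were. With a library left out, both tables that remain must mark a gene, so these counts can only fall where a gene was marked in 2 tables. In limma, fitted to log2(FPKM + 1) over 11968 features, none of the 10 genes passed an adjusted p of 0.05 in either direction, and none had an unadjusted p under 0.05. That fit called 0.0251% of all features as higher and 0.100% as lower. Its 2 residual degrees of freedom come from the spread of the knockdown group alone. Adjusted p was 0.999 for each of the 10 genes in limma.

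The 10 genes were not shifted evenly across libraries. Knockdown libraries 1, 2 and 3 gave median log2 ratios of 0.19, 0.30 and 0.91 over the control, beside -0.02, 0.03 and 0.01 for all features in the fit. In library 3 all 10 lay above the control, in library 2 it was 8 and in library 1 it was 7. All 3 knockdown libraries were above the control for 5 genes, Dusp6, Il17rd, Etv1, Etv4 and Etv5, which is 5 of 10 against 22.0% of all features. Between knockdown libraries, the ratio was higher in library 3 than in library 2 for 9 of 10 genes, where 47.5% of all features ran that way. It was higher in library 3 than in library 1 for all 10, against 54.6% of features, and higher in library 2 than in library 1 for 7 of 10, against 55.1%. Dusp4 was the 1 gene whose highest level was in library 2.

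**Figure D1:**
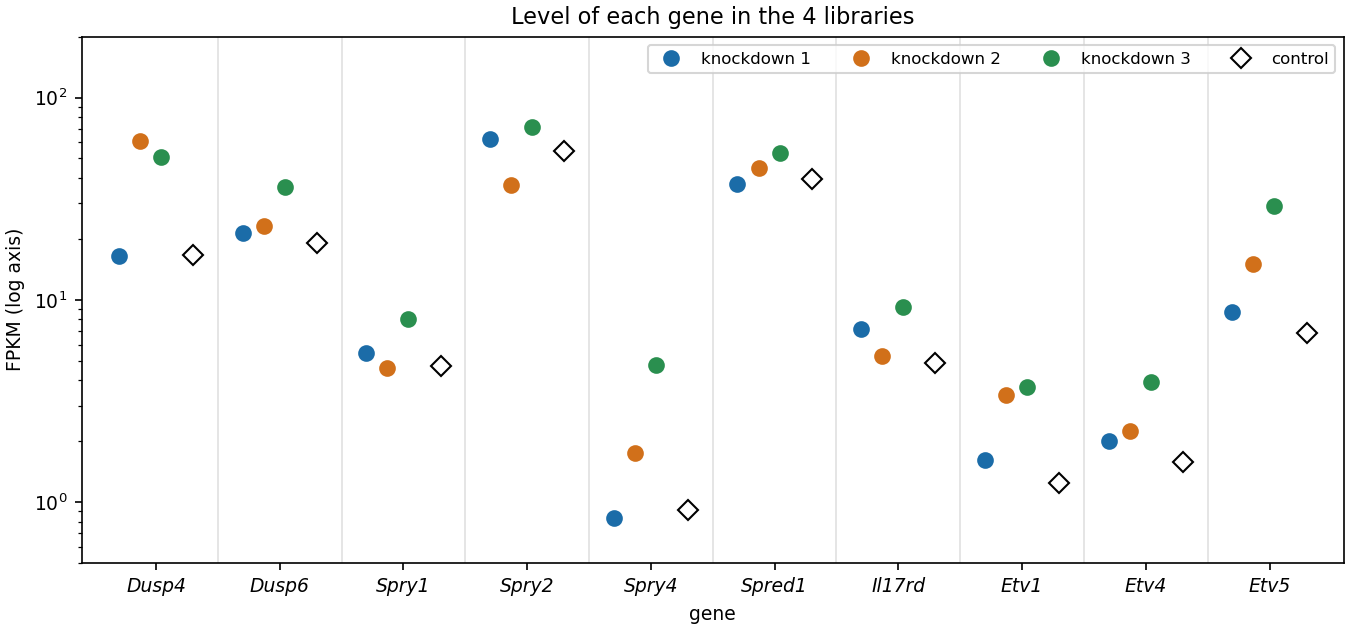
FPKM (log axis) of each gene in knockdown libraries 1, 2 and 3 (filled circles) and in the control library (open diamond). Library 3 holds the highest value for every gene except Dusp4, which peaks at 61.4 FPKM in library 2.

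The phosphatase genes differed in how many libraries responded. Dusp4 encodes a nuclear phosphatase that acts on ERK and related kinases, and it lies on chromosome 8 from 35870663 to 35882948 (mm9). It had 16.4, 61.4 and 50.6 FPKM in knockdown libraries 1, 2 and 3, against 16.7 FPKM in the control. Library 1 was level with the control and libraries 2 and 3 stood well above it. The fold was 3.66 in library 2 (95% interval 2.49 to 5.40) and 3.02 in library 3 (2.11 to 4.33). In library 1 it was 0.981 (0.809 to 1.19). These intervals come from the standard error that the deposited test implies and cover its error model between 2 libraries, not the spread between cultures. Over the 3 libraries the log2 ratio in limma was 1.11 with a standard error of 0.77.

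Dusp6 encodes a cytoplasmic phosphatase selective for ERK and lies on chromosome 10 from 98725864 to 98730122. It had 21.4, 23.2 and 36.1 FPKM in knockdown libraries 1, 2 and 3, against 19.1 FPKM in the control. All knockdown values were above the control, but libraries 1 and 2 by little. The authors' deposited tables marked it in library 3 only (q = 0.00973), at a fold of 1.88 (95% interval 1.34 to 2.65), so it was not called. In library 2 the fold was 1.21 and its interval, 0.820 to 1.79, held no change.

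Of the Sprouty genes and Spred1, none was called. Spry4, which encodes a Sprouty protein that restrains RAS to ERK signalling, lies on chromosome 18 from 38745918 to 38760922. It had 0.836, 1.76 and 4.78 FPKM in knockdown libraries 1, 2 and 3, against 0.908 FPKM in the control. The levels of libraries 1 and 2 and the control were all low, and library 3 stood alone. Its fold in library 3 was 5.26 (95% interval 2.57 to 10.8), the largest point estimate among the 10 genes in any table, and the authors' deposited table marked it there (q = 0.000360). The fold of 1.93 in library 2 had an interval of 0.846 to 4.42 and was not marked. Spry4 was under 1 FPKM in the control and passed the filter of a mean of 1 FPKM through libraries 2 and 3.

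Spry2 was the most abundant of the 10 genes in the control and the 1 gene with an interval wholly below 1 in any table. This Sprouty gene lies on chromosome 14 from 106291163 to 106296036. It had 62.2, 36.9 and 71.7 FPKM in knockdown libraries 1, 2 and 3, against 54.7 FPKM in the control. The fold in library 2 was 0.675 (95% interval 0.479 to 0.952), which the authors' deposited table did not mark (q = 0.243). In libraries 1 and 3 it was 1.14 and 1.31. Knockdown values lay on both sides of the control, and the mean was 104% ± 32.9 (SD, n = 3) of it.

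Spry1, on chromosome 3 from 37538871 to 37543521, had 5.48, 4.59 and 8.07 FPKM in knockdown libraries 1, 2 and 3, against 4.69 FPKM in the control. Only library 3 stood apart, at a fold of 1.72 whose interval of 0.942 to 3.14 still held 1. Spred1 encodes a SPRED protein that recruits the RAS inactivator neurofibromin to the membrane, and it lies on chromosome 2 from 116947185 to 117005072. Its levels were 37.5, 44.6 and 53.4 FPKM in knockdown libraries 1, 2 and 3, against 39.8 FPKM in the control. It varied least among the 10 genes relative to the control, with a mean of 114% ± 20.1 (SD, n = 3). In library 3 the Spred1 fold was 1.34 (95% interval 1.01 to 1.79), and the authors' deposited table did not mark it (q = 0.354).

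Il17rd encodes a transmembrane antagonist of FGF signalling and lies on chromosome 14 from 27852186 to 27920472. It had 7.15, 5.25 and 9.19 FPKM in knockdown libraries 1, 2 and 3, against 4.85 FPKM in the control. All knockdown values were above the control, with library 2 the nearest to it. The authors' deposited tables marked it in libraries 1 (q = 0.00225) and 3 (q = 0.0213), which makes it the 1 gene of the 10 marked in library 1. Its fold was 1.47 in library 1 (95% interval 1.23 to 1.76), 1.08 in library 2 (0.703 to 1.67) and 1.89 in library 3 (1.31 to 2.74). The library 2 interval holds both no change and the fold of library 1. In limma its log2 ratio was 0.46 with a standard error of 0.33.

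**Figure D2:**
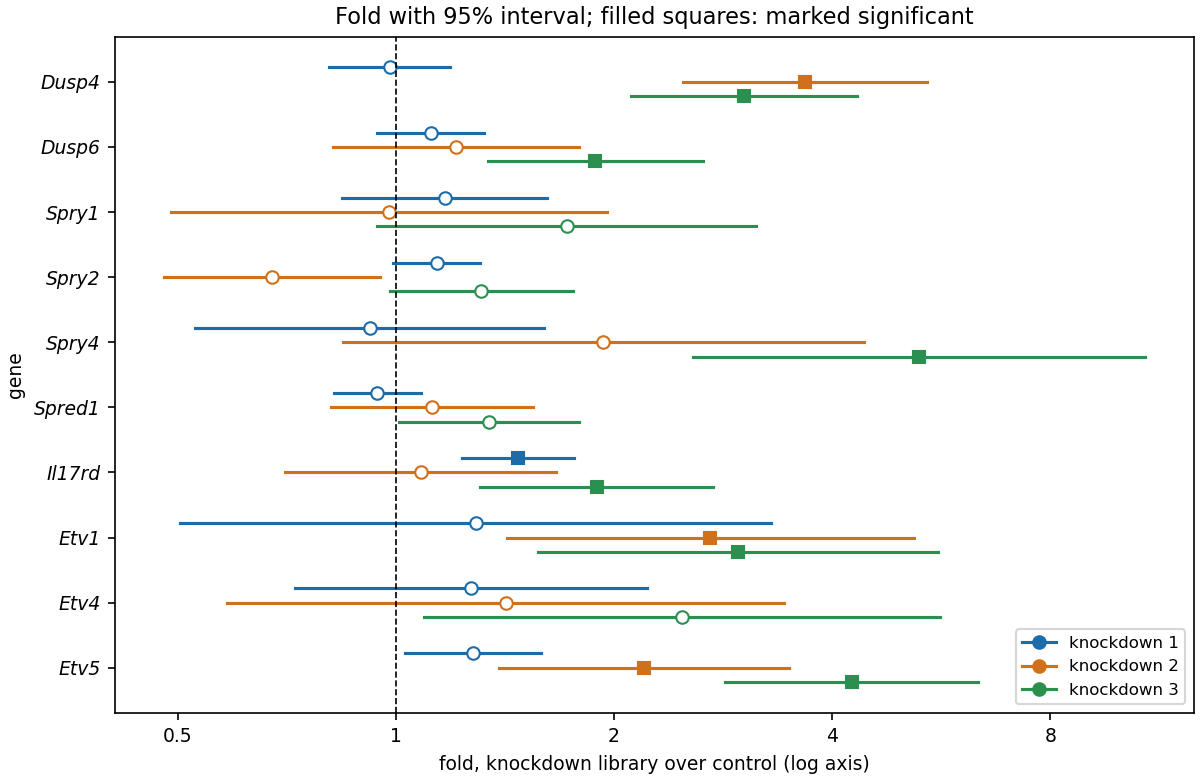
Fold of each knockdown library over the control (log axis) for the 10 genes, with the 95% interval implied by the deposited test. Filled squares are marked as significant in the authors' deposited tables, and the dashed line is no change: Dusp4, Etv1 and Etv5 have 2 squares in libraries 2 and 3, and Il17rd has 2 in libraries 1 and 3.

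The PEA3 genes all had higher values in every knockdown library than in the control, and Etv1 and Etv5 rose. Etv5, on chromosome 16 from 22381385 to 22439643, had 8.74, 15.1 and 29.1 FPKM in knockdown libraries 1, 2 and 3, against 6.84 FPKM in the control. The knockdown libraries were ordered 3, 2 and 1, and none overlapped the control. The folds were 1.28 (95% interval 1.03 to 1.59), 2.20 (1.39 to 3.49) and 4.25 (2.84 to 6.36) in libraries 1, 2 and 3. The authors' deposited tables marked it in library 2 (q = 0.0201) and library 3 (q = 4.45e-10), but not in library 1 (q = 0.288). Its limma log2 ratio was 1.10 with a standard error of 0.64.

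Etv1, on chromosome 12 from 39506844 to 39594793, had 1.61, 3.39 and 3.70 FPKM in knockdown libraries 1, 2 and 3, against 1.25 FPKM in the control. Libraries 2 and 3 were close to each other and above library 1. The folds were 1.29 (95% interval 0.504 to 3.29), 2.72 (1.42 to 5.19) and 2.97 (1.57 to 5.60) in libraries 1, 2 and 3. The library 2 mark was near the threshold of 0.05 in the authors' deposited table (q = 0.0479). Etv4 lies on chromosome 11 from 101631055 to 101646624 and had 2.01, 2.24 and 3.92 FPKM in knockdown libraries 1, 2 and 3, against 1.58 FPKM in the control. Its fold in library 3 was 2.48 (95% interval 1.09 to 5.63), unmarked in the authors' deposited table (q = 0.289). For Etv4 the interval is wide: the implied standard error there was 0.418 natural log units, against 0.205 for Etv5 in the same table. None of the 10 genes overlaps another feature of the tables in mm9.

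Promoter windows, 250 bases before to 50 bases after an annotated start, were read for the genes from RefSeq on GRCm38.p6, a later build than the mm9 of the expression tables. A window was found for 7 of the 10 genes and not for Dusp4, Spry4 and Etv4. With second starts for Etv1 and Etv5 this gave 9 windows. Those shown belong to the called genes that have a window (of Etv1, the first start) and to Spry2, the gene whose window holds the longer ETS core described after them. Letters run 5′ to 3′ on the gene's strand, and capitals mark GGAA or its reverse complement TTCC, the core that ETS factors bind.
Etv1, first start, chr12:38779832-38780131, plus strand: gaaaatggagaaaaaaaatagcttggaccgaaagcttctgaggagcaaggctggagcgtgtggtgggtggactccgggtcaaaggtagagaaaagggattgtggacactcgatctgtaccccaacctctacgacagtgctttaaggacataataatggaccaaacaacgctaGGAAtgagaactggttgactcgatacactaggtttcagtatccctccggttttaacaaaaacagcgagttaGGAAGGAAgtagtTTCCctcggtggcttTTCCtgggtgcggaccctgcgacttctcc
Etv5, first start, chr16:22439521-22439820, minus strand: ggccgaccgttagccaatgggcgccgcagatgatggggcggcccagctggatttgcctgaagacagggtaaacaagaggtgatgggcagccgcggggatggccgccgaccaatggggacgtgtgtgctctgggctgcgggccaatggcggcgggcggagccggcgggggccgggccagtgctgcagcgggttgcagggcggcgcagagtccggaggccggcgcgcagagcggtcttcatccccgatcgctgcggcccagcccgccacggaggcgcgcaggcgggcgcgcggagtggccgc
Etv5, second start, chr16:22438319-22438618, minus strand: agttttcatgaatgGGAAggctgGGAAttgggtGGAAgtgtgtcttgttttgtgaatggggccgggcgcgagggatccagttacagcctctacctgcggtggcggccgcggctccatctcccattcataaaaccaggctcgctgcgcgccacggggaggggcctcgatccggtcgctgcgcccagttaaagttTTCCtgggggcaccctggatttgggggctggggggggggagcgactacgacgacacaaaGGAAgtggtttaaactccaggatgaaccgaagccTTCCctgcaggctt
Il17rd, chr14:27038751-27039050, plus strand: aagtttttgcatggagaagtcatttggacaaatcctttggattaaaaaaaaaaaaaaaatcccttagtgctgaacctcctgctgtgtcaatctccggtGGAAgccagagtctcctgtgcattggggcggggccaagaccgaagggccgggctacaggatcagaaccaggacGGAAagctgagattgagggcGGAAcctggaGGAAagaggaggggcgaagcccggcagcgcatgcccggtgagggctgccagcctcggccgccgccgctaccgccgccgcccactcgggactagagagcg
Spry2, chr14:105896770-105897069, minus strand: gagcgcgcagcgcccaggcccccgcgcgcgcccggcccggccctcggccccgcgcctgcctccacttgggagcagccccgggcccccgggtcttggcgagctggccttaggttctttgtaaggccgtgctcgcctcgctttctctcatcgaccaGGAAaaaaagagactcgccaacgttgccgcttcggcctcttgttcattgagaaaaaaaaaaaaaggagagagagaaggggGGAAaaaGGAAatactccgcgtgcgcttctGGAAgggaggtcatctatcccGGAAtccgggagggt

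The core GGAA, searched on both strands, was found 5 times at the first Etv1 start and 1 time at its second, and 0 times at the first Etv5 start and 6 times at its second. The windows of Dusp6, Spry1, Spry2, Spred1 and Il17rd held 6, 1, 5, 5 and 4 matches. The core is present in 96.0% of all 32851 RefSeq windows, with a median of 3 matches. The longer ETS core CCGGAA, which contains GGAA, was found in the Spry2 window alone among the 9, and in 14.9% of all windows. Capicua is a repressor known to silence Etv1, Etv4 and Etv5. The forms TGAATGAA and TGAATGGA of the octamer that it binds were in none of the 9 windows and in 2.47% of all windows. Other forms of the octamer were not searched, so the windows may still hold a Capicua site. Near matches can be read in some of them. The second Etv5 window holds TGAATGGG, which differs from TGAATGGA in the last base only. The Dusp6 window holds TCCATTGA and the Spry2 window TTCATTGA. Their reverse complements differ from TGAATGGA and TGAATGAA in the second base only. Whether Capicua binds at these places was not tested. The cyclic AMP response element TGACGTCA was in none of the 9 and in 1.79% of all. CpG-rich windows were the rule: 8 of the 9 held between 12 and 40 CpG pairs and the second Etv1 start held 3, where the median of all windows was 7. The files do not say which start was used in these cells.

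In the control the levels ran in the order Spry2, Spred1, Dusp6, Dusp4, Etv5, Il17rd, Spry1, Etv4, Etv1 and Spry4, between 54.7 and 0.908 FPKM. Over the knockdown libraries the ranges of neighbours in that order overlapped in 7 of 9 pairs. The exceptions were Spred1 with Dusp6, and Spry1 with Etv4. Dusp4, with 42.8 ± 23.5 FPKM (SD, n = 3) in the knockdown group, ranged from 16.4 to 61.4 FPKM across the knockdown libraries. At its upper end it therefore reached into the ranges of Spred1 and Spry2.

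Other genes of the pathway were counted in 5 lists, to be read beside the 1.98% of all features that rose and the 0.905% that fell. At such shares a list of this size is expected to hold few calls or none, so a count of 0 is not a result about the list. Among 25 further feedback regulators, 23 could be called, and 0 rose and 0 fell. The most abundant were Pea15a, which binds ERK in the cytoplasm, with 94.3, 119 and 124 FPKM in knockdown libraries 1, 2 and 3 against 99.3 FPKM in the control, and Dusp9, an ERK phosphatase, with 40.4, 38.6 and 61.5 FPKM against 44.7 FPKM. Both were close to the control in libraries 1 and 2. Of 23 genes of the cascade from the FGF receptor adaptors through ERK to kinases that ERK or related kinases activate, 21 could be called. Of these, 0 rose and 0 fell. Mapkapk2, among the most abundant, had 59.7, 63.2 and 58.1 FPKM in knockdown libraries 1, 2 and 3, against 61.1 FPKM in the control. The authors' deposited tables marked 2 genes of this list as lower, each in 1 library and named after their values were seen. The adaptor gene Shc1 was marked in library 2, with 32.7, 20.4 and 29.2 FPKM in the knockdown libraries against 34.6 FPKM in the control. Map2k2, which encodes a MEK kinase, was marked in library 1, with 29.7, 33.2 and 29.9 FPKM against 39.2 FPKM. Median log2 ratios of the cascade list were -0.04, 0.01 and 0.06 in libraries 1, 2 and 3.

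Immediate-early and other early targets of ERK were described by a list of 20 genes, of which 18 could be called, and 0 rose and 0 fell. Their median log2 ratio was 0.03, -0.32 and 0.13 in knockdown libraries 1, 2 and 3. In library 2 the authors' deposited table marked 4 of them as lower, Egr1, Egr2, Fosl2 and Myc, and these were named after their values were seen. Egr1, a zinc finger factor, had 18.7, 7.69 and 18.0 FPKM in knockdown libraries 1, 2 and 3, against 16.3 FPKM in the control. The feedback genes Dusp5 and Errfi1 were also marked as lower in library 2 only, the library in which Dusp4, Etv1 and Etv5 were marked as higher. Dusp5, a nuclear ERK phosphatase, had 18.3, 7.40 and 18.9 FPKM against 21.1 FPKM. The most abundant immediate-early list genes, Ccnd1 and Mcl1, stayed within 62.2 to 76.7 FPKM in the knockdown libraries, against 67.9 and 66.8 FPKM in the control.

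Of 21 other ETS factors and repressors 17 could be called, and 0 rose and 0 fell. The most abundant, Elf2 and Gabpa, had 37.4 to 43.5 and 29.6 to 31.2 FPKM in the knockdown libraries, against 38.3 and 27.5 FPKM in the control, and Gabpa overlaps other features, so its level is uncertain. Ets1 was marked as lower in library 2 only, with 10.4, 1.45 and 6.44 FPKM in knockdown libraries 1, 2 and 3, against 8.87 FPKM in the control. Cic, which encodes Capicua, had 15.4, 16.8 and 16.0 FPKM against 15.7 FPKM. Of 17 FGF ligand and receptor genes 15 could be called, and 1 rose, Fgf4, a ligand made by naive pluripotent cells. Fgf4 had 0.432, 2.82 and 5.47 FPKM in knockdown libraries 1, 2 and 3, against 0.596 FPKM in the control. Fgf18, another ligand gene, was also higher, with 0.346, 3.16 and 4.11 FPKM against 0.174 FPKM, but was not marked in any library. Fgf18 had no usable test in library 1, so it did not enter the fit. Fgfr1, the most abundant receptor gene, had 42.2, 40.2 and 43.2 FPKM against 38.4 FPKM. Fgfr3 was marked as lower in library 1 only, with 23.7, 44.6 and 30.9 FPKM against 32.5 FPKM.

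**Figure D3:**
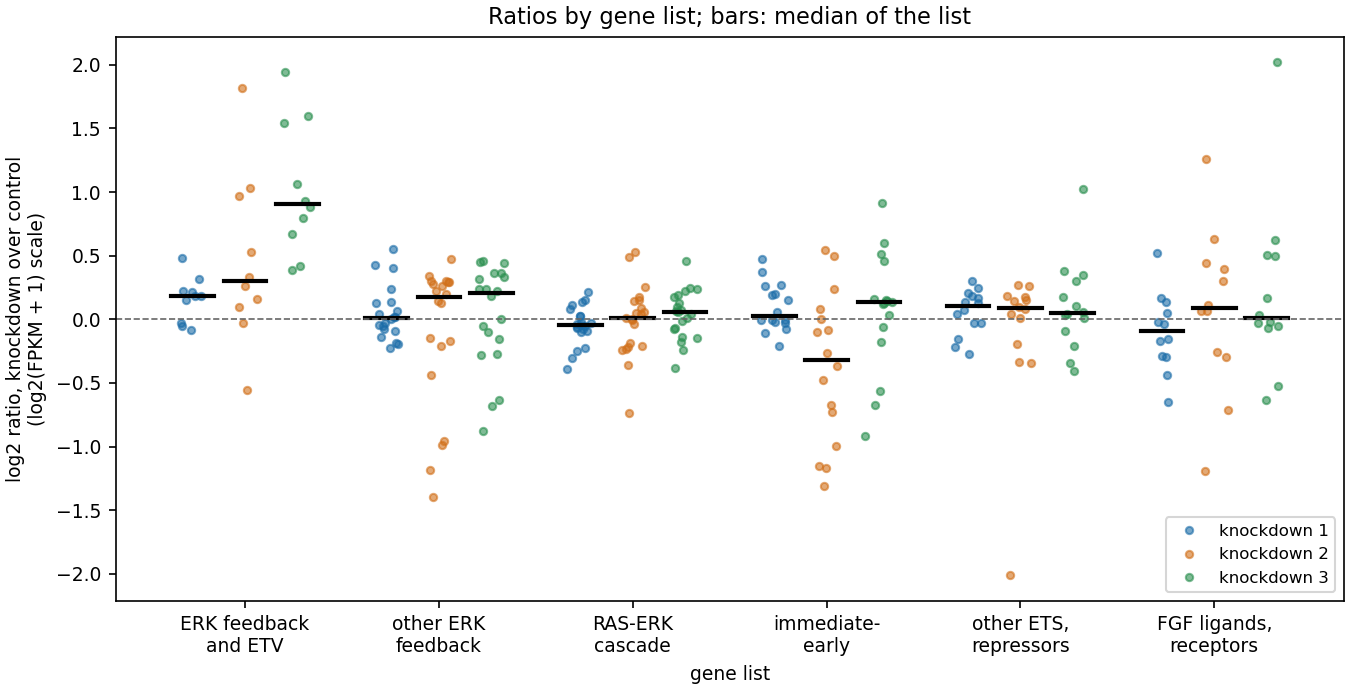
Log2 ratio of each knockdown library to the control, on the log2(FPKM + 1) scale, for the genes of 6 lists that entered the fit; points are genes and bars the median of the list. The ERK feedback and ETV genes have medians of 0.19, 0.30 and 0.91 in libraries 1, 2 and 3, and the immediate-early genes have -0.32 in library 2.

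Markers of other cell types moved in the same libraries. Their counts stand beside the 1.98% of all features that rose and the 0.905% that fell. The summed level of 9 naive pluripotency markers was 138%, 749% and 1238% of the control in knockdown libraries 1, 2 and 3, and 7 of the 9 rose. Dppa5a, the most abundant of them, had 32.8, 184 and 286 FPKM in the knockdown libraries against 19.9 FPKM in the control, and Zfp42 had 4.68, 33.0 and 58.0 FPKM against 3.74 FPKM. For 8 neuronal markers the sums were 107%, 395% and 199% of the control, and 5 rose. Nefm, a neurofilament gene, had 17.6, 198 and 74.2 FPKM against 15.6 FPKM, and Tubb3 had 24.0, 138 and 75.8 FPKM against 22.2 FPKM. Stmn2, the neuronal marker with the highest control level, went the other way, with 75.4, 44.6 and 40.5 FPKM against 66.9 FPKM, and the authors' deposited table marked it as lower in library 3. The naive sum was thus highest in library 3, as were 9 of the 10 genes, and the neuronal sum, though not Stmn2, in library 2, as was Dusp4. Fgf4 stands on both the FGF and the naive list.

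Summed levels of 8 primed epiblast and epithelial markers were 111%, 22.6% and 36.3% of the control in libraries 1, 2 and 3, and 7 fell. The other, the primed epiblast gene Fgf5, went the other way, at 266%, 145% and 242% of the control in libraries 1, 2 and 3. Fgf5 was under 1 FPKM in every library and had no usable test, so it could not be called and adds little to the sums. The E-cadherin gene Cdh1 had 74.2, 6.63 and 18.8 FPKM in the knockdown libraries against 65.2 FPKM in the control, and Dnmt3b had 45.4, 25.8 and 28.8 FPKM against 43.6 FPKM. The 8 fibroblast markers, on a list for the feeder cells, summed to 107%, 163% and 250.1%, with Postn and Lox called as risen. Fibroblast markers were therefore also highest in library 3, where the collagen genes Col1a1 and Col1a2 had 23.1 and 16.3 FPKM, against 7.70 and 9.43 FPKM in the control. For 8 neural precursor markers the sums were 99.5%, 131% and 103%, and for 8 mesoderm and endoderm markers 97.7%, 102% and 123%, with 0 called in either list. The most abundant endodermal genes, Gata4 and Gata6, had 32.7 to 38.0 and 13.4 to 20.1 FPKM in the knockdown libraries, against 31.0 and 16.4 FPKM in the control. Lum, a fibroblast marker, and Mixl1, a mesoderm marker, were the ones listed at 0 in the control. The part of these cell types in the levels of the 10 genes was not tested, and in bulk RNA a change in the number of such cells and a change in RNA per cell cannot be told apart.

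Libraries with nearly the same Geminin RNA differed in the levels of the 10 genes. Libraries 1 and 3 held 24.0% and 24.7% of the control's Gmnn, yet Etv5 was at 128% of the control in library 1 and 425% in library 3, and Dusp4 at 98.1% and 302%. Library 2, with 58.4% of Gmnn, had Etv5 at 220.1% and Dusp4 at 366%. Gmnn and the summed level of the 10 genes, 109%, 132% and 180% of the control in libraries 1, 2 and 3, are given for 3 libraries only, and no relation between them was tested. The sum follows the most abundant genes and is not an even shift of all 10. In library 2 it was 198 FPKM against 150.4 FPKM in the control. Dusp4 alone had 61.4 against 16.7 FPKM there, while Spry2 went the other way, with 36.9 against 54.7 FPKM.

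**Figure D4:**
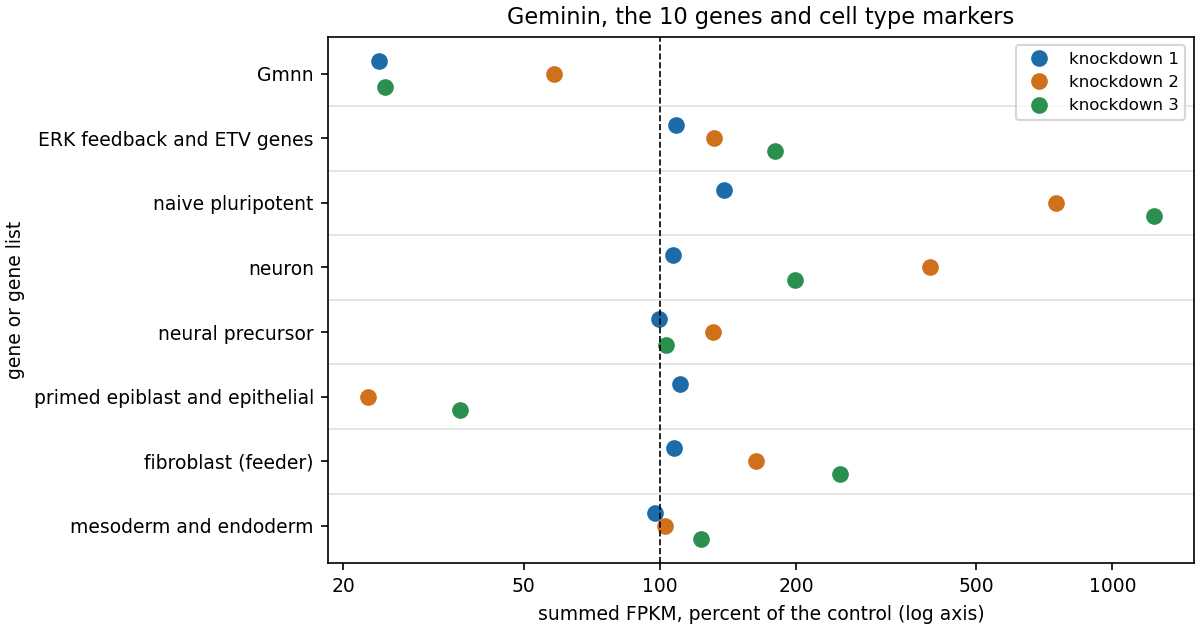
Summed FPKM in knockdown libraries 1, 2 and 3 as a percent of the control (log axis) for Gmnn, the 10 genes and 6 lists of cell type markers. Library 1 has Gmnn at 24.0% and the 10 genes at 109%, whereas library 3 has Gmnn at 24.7%, the 10 genes at 180% and the naive pluripotency markers at 1238%.

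For each called gene, the features nearest in pattern were sought among 265 other features that rose, by the Euclidean distance between their 3 log2 ratios. Among the nearest to Dusp4 was Slc1a2, a glutamate transporter of astrocytes (distance 0.19). It had 0.709, 5.14 and 3.32 FPKM in knockdown libraries 1, 2 and 3, against 0.623 FPKM in the control. Nearest to Etv1 were Kank4 (0.067) and Cbx7, a Polycomb subunit (0.081). Nearest to Etv5 were Col5a2, a collagen gene (0.14), and Lox, a collagen cross-linking enzyme gene (0.16), both higher in library 3 than in library 2. Lox is also on the fibroblast list. Il17rd had no such close neighbour among these features: Nsa2 lay at 0.44 and Tor1aip2 at 0.46. It was called through libraries 1 and 3, and library 1 marked fewer features as higher (130) than library 2 (469) or library 3 (489). The choice of features that rose can therefore itself leave Il17rd with distant neighbours, and its part was not tested. Over 3 libraries such distances are a description only.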

How the data were processed

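RNA sequencing of 3 Geminin knockdown libraries and 1 control library was analysed. The submitters' processing notes name TopHat, Cufflinks, Cuffdiff and mm9, but their versions and the gene annotation were not given in the sources used here. The authors deposited 3 tables that, per the file headers, hold the FPKM of 1 knockdown library and of the shared control. The deposited p-value and q-value come from Cuffdiff; the q-value exceeds 1 in places and was read as a score, as were the deposited test statistic and the natural log score of control over knockdown. Each such test compares 2 libraries, not the conditions. Ratios were formed within a table. Standard errors were taken as the deposited log ratio over its test statistic. Counts and absolute depth are unknown; relative depth came from ratios of whole reads up to 12 (tolerance 0.2%), which held 85.0% to 87.9% of low features. The limma 3.58.1 fit (R 4.3.3) used log2(FPKM + 1), which understates changes of low genes, on features tested in every table whose mean reached 1 FPKM; all 10 genes passed. It assumes that the lone control varies as the knockdown libraries do, with Benjamini-Hochberg adjustment, and was checked on simulated data. The spread simulated was smaller than that of each of the 10 genes between knockdown libraries. The check therefore does not show how well changes are found at the real spread. Permuting 3 libraries against 1 reaches at best p = 0.25 one-sided, so no exact permutation test was run.

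The 10 genes and all lists were chosen with earlier results of these data known, so no list was tested. Named genes were all 10, Gmnn, up to 4 called genes of each pathway list or else its 2 most abundant in the control, the 2 features nearest each called gene in pattern, and the most abundant markers; some genes that this rule names are not reported here. Others are said to be named after their values were seen. Cic, Fgf5, Fgf18, Fgfr1, Fgfr3, Ets1, Dusp5, Errfi1 and Stmn2 were added in that way. Alternatives were another pseudocount, centring, no filter, another adjustment, a level floor, all tables required, and each library left out. The GGAA motif was added after the windows were read. The 2 deposited files that repeat marked features were not used.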

Additional observations from a re-analysis of the deposited data

How the results depend on the processing

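Among the 10 genes, the 4 that rose by the study's rule were the same 4 with the Cuffdiff p adjusted again by Benjamini-Hochberg and with a floor of 1 FPKM in a marking table. With all 3 tables required, 0 rose. Leaving out 1 knockdown library gave between 0 (without library 3) and 3 (without library 1) that rose. None fell under any of these settings. Of the pathway list genes, 1 rose (Fgf4), against 0 with all 3 tables required and between 0 and 1 with a library left out, Fgf4 being lost without library 2 or library 3. In limma none of the 10 genes passed under any of 6 alternatives, with adjusted p between 0.26 and 1. The median log2 ratio of the 10 genes was 0.48, and 0.26 to 0.61 with a library left out. With a pseudocount of 0.1 it was 0.61, and with centring 0.47. Spry2, at 0.0052 in the main setting, changed sign: it was -0.0014 with centring, and between -0.19 (without library 3) and 0.28 (without library 2), with -0.084 without library 1. The other 9 genes kept a positive sign under all 6 alternatives. No paired analysis was possible because the groups share only 1 replicate number. With 1 control and unknown absolute depth, low genes such as Spry4 and Etv1 have wide intervals.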
